A study of Homo sapiens with 32 samples.

Results

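The results below set the response of LNCaP cells to CSN5i-3 beside that of 22Rv1 cells. CSN5i-3 is an inhibitor of CSN5, and both lines received 5 µM. For each gene, the effect of the inhibitor in LNCaP (CSN5i-3 minus DMSO, on the log2 scale) had the effect in 22Rv1 subtracted from it. Such a difference is positive where the gene moved further up, or less far down, in LNCaP. It rests on 8 of the 32 libraries of the series: LNCaP with CSN5i-3, LNCaP with DMSO, 22Rv1 with CSN5i-3 and 22Rv1 with DMSO, with 2 libraries in each group. Both human lines came from ATCC, and total RNA was extracted with a Direct-Zol kit. The labels give neither the length of treatment nor whether the 2 libraries of a group came from separate cultures.

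LNCaP is an established line from a lymph node metastasis of prostate cancer and depends on androgen for growth. 22Rv1 is an established line from a xenograft that relapsed after castration, and it can grow without androgen. COPS5 encodes CSN5, the protease within the COP9 signalosome that takes the ubiquitin-like protein NEDD8 off cullins. Cullins are the scaffolds of the cullin-RING ubiquitin ligases, whose substrates include cell cycle regulators, inhibitors of NF-kB and the transcription factor NRF2. With CSN5 blocked, cullins stay loaded with NEDD8, and substrate receptors of these ligases can be degraded by their own ligase.

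Library totals were 35042521 to 43756910 counts. The count tables of the lines were deposited separately and their library names carry different project letters, so line and project cannot be told apart. Each effect was taken within a table. The tables shared 20863 symbols found once in each, which held 98.5% to 98.71% of a library's counts, and 18544 of these passed a filter on low counts. Summed over 15 luminal prostate markers, levels were 4213 and 4226 CPM, the counts scaled to a common library total, in LNCaP with CSN5i-3 and 3975 and 3940 CPM in LNCaP with DMSO. In 22Rv1 the same sum was 4064 and 3381 CPM with CSN5i-3 and 2349 and 2467 CPM with DMSO. Basal prostate markers and keratins, 14 of 17 with a row, summed to 462 and 463 CPM in LNCaP with CSN5i-3 and 119 and 113 CPM with DMSO, and to 499 and 472 CPM in 22Rv1 with CSN5i-3 and 144 and 142 CPM with DMSO. Their part in the results was not tested. Of 10 leukocyte markers, 5 had a row, and PTPRC, which marks all leukocytes, had none. Their sum was 27.4 and 27.0 CPM in LNCaP with CSN5i-3, 0.475 and 0.736 CPM in LNCaP with DMSO, 1.20 and 1.10 CPM in 22Rv1 with CSN5i-3, and 0.615 and 0.886 CPM in 22Rv1 with DMSO. Nearly all of the LNCaP sum was CD68, a lysosomal protein of macrophages that other cells also make, at 26.1 and 25.9 CPM with CSN5i-3. As these are bulk samples, fewer cells of a kind and less RNA per cell cannot be told apart.

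COPS5, the gene of the inhibited protein, served to check what the treatment did to its own message. It stood at 51.1 and 57.3 CPM in LNCaP with CSN5i-3 and at 51.9 and 47.3 CPM with DMSO. In 22Rv1 it stood at 91.9 and 102 CPM with CSN5i-3 and at 88.3 and 77.5 CPM with DMSO. The inhibitor acts on the enzyme, so the message is no check of the labels. The effect was 0.13 ± 0.12 in LNCaP and 0.22 ± 0.11 in 22Rv1, and the difference was -0.09 ± 0.16 (95% interval -0.47 to 0.29, adjusted p = 0.77). Errors after ± are standard errors of log2 values from edgeR's quasi-likelihood fit with 2 libraries per group, and adjusted p-values in this text come from that fit with Benjamini-Hochberg adjustment over all genes tested. No member of the COP9 signalosome among 10 tested differed between the lines at an adjusted p of 0.05, while 15.6% of all genes did. In a fit with offsets adjusted for transcript GC content, chosen after the data were seen and calling 6959 genes in all, 5 of the 10 were lower in LNCaP. Of 23 cullins and neddylation genes, 1 differed.

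The response to CSN5i-3 was wide in both lines and only partly shared. In LNCaP the inhibitor moved 7016 of 18544 genes (37.8%), 3478 higher (18.8%) and 3538 lower (19.1%). In 22Rv1 it moved 5564 genes (30.0%), 3152 higher (17%) and 2412 lower (13%). The LNCaP count was 3916 and 4015 without LNCaP CSN5i-3 replicate 2 and 1 and 4422 and 4576 without LNCaP DMSO replicate 1 and 2. The 22Rv1 count was 3666 without 22Rv1 DMSO replicate 2. With total counts in place of TMM scaling, the LNCaP split became 2716 higher and 4507 lower, and the median effect of all genes moved to -0.11, against 0.02 with TMM. In these fits the lines shared 1 estimate of the spread, on which the classes by call below also rest. Fitted alone over all genes of its own table, LNCaP had 9598 calls and 22Rv1 had 4010. Across the 11571 genes with a mean of at least 5 CPM, the effects of the lines had a Pearson correlation of 0.59 and a Spearman correlation of 0.53, given as a description across genes that share libraries.

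The effect differed between the lines for 2887 genes (15.6%). It was higher in LNCaP for 1033 (5.57%) and lower in LNCaP for 1854 (10%), the shares to set beside the list counts below. For counts of members that rose or fell in a line, the shares are 18.8% and 19.1% in LNCaP and 17% and 13% in 22Rv1. Among the 2887 genes, 1740 had a difference of at least 1 on the log2 scale and 775 of at least 2. The largest class, 576 genes, rose in 22Rv1 with no call in LNCaP, and 525 rose in LNCaP with no call in 22Rv1. A further 515 fell in LNCaP with no call in 22Rv1, and 209 fell in 22Rv1 with no call in LNCaP. Opposite calls were made for 376 genes (2.03%), of which 102 rose in LNCaP and fell in 22Rv1, and 274 fell in LNCaP and rose in 22Rv1. Of the genes that fell in both lines and differed, 336 fell further in LNCaP and 35 further in 22Rv1. Among those that rose in both, 149 rose further in LNCaP and 124 further in 22Rv1. The count of differing genes ranged from 1234 to 3471 when each library was left out in turn. It was 1234 and 1273 without LNCaP CSN5i-3 replicate 2 and 1, 1455 and 1596 without LNCaP DMSO replicate 1 and 2, and 1664 without 22Rv1 DMSO replicate 2. DESeq2 called 2192 genes. Opposite calls numbered 211 with DESeq2, 172 and 183 without LNCaP CSN5i-3 replicate 1 and 2, 215 and 228 without LNCaP DMSO replicate 1 and 2, and 216 without 22Rv1 DMSO replicate 2.

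**Figure D1:**
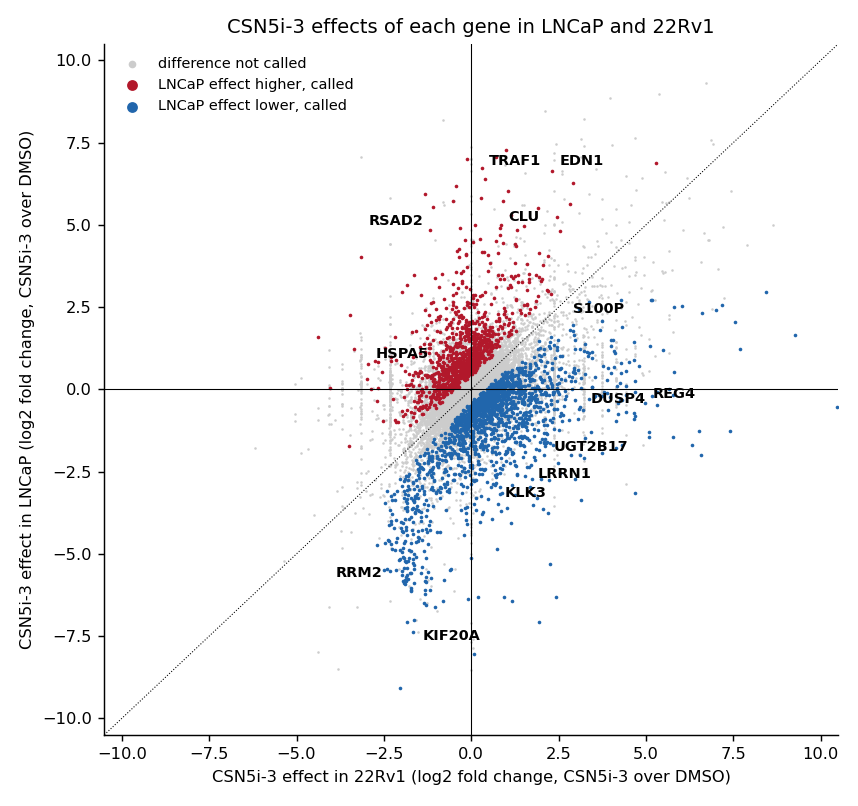
Each point is a gene; the vertical axis is the log2 effect of CSN5i-3 in LNCaP and the horizontal axis that in 22Rv1, with the genes whose effects differed in colour. The 1854 genes with a lower effect in LNCaP lie below the diagonal and the 1033 with a higher effect above it.

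Replicates of a group differed by more than counting error. The chi-square per gene between them was 3.14 in LNCaP with CSN5i-3, 19.5 in LNCaP with DMSO, 62.1 in 22Rv1 with CSN5i-3 and 38.7 in 22Rv1 with DMSO. This spread followed transcript GC content, with Spearman correlations across genes between GC and replicate 1 minus replicate 2 of 0.479, -0.727, 0.854 and -0.808 in the same order. GC content had a Spearman correlation of 0.217 with the difference between the lines, 0.118 with the LNCaP effect and -0.0895 with the 22Rv1 effect. Its part in the results was not tested, beyond a fit with GC-adjusted offsets that called 6959 genes.

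Genes of mitosis were the most uniform group. These genes serve chromosome condensation, the spindle and cytokinesis, and many of their promoters carry a cell cycle homology region (CHR) together with CCAAT boxes. Promoters of 3 such genes are shown, because KIF20A, KIF2C and TOP2A had the lowest differences among list members with a promoter sequence. KIF20A lies on the plus strand at chr5:138178862-138179161, KIF2C on the plus strand at chr1:44739587-44739886 and TOP2A on the minus strand at chr17:40417847-40418146. The windows run from 250 bases before to 50 bases after the gene start in RefSeq on GRCh38.p14, 5′ to 3′ along the gene, and capitals mark matches to CHR (TTTGAA) or CCAAT on either strand.
KIF20A: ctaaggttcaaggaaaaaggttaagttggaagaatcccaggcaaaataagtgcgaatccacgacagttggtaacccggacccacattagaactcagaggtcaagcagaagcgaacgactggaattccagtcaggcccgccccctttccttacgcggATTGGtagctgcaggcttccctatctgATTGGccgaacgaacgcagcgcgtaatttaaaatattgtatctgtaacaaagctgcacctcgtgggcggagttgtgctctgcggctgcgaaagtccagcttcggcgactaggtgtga
KIF2C: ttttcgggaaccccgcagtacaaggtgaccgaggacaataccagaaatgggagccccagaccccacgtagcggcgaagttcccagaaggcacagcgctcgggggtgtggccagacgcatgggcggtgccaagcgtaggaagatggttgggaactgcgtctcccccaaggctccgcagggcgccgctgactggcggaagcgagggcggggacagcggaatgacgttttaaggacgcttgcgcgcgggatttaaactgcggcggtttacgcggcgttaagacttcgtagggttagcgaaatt
TOP2A: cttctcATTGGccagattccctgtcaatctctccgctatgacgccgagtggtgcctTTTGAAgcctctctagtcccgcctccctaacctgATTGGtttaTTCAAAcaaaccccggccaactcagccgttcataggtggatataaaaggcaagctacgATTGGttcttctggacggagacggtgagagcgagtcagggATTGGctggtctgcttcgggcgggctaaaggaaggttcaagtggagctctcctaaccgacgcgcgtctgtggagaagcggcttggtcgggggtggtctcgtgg
The KIF20A window holds 2 CCAAT matches and no CHR match, the KIF2C window holds neither, and the TOP2A window holds 2 CHR matches and 4 CCAAT matches. Of the 26 mitotic genes with a promoter in the table, 17 (65.4%) had a CHR match and 18 (69.2%) a CCAAT match, while 4191 (15.4%) and 9697 (35.7%) of all 27195 promoters did. An E2F motif (TTTGGCGC, TTTCGCGC or TTTCCCGC, either strand) was in 2 of the 26 (7.7%) and in 2.8% of all promoters. For 24 replication fork and nucleotide supply genes the order was the other way round, with an E2F match in 13 (54.2%) and a CHR match in 1 (4.2%). For 17 origin licensing genes an E2F match was in 7 (41.2%) and a CHR match in 1 (5.9%). For 13 homologous recombination and Fanconi genes an E2F match was in 3 (23.1%) and a CHR match in 1 (7.7%). That list also fell further in LNCaP, with a median difference of -1.40. Whether a motif goes with the difference between the lines was not tested. A match is a stretch of letters and not a measured binding site.

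All 32 G2/M and mitosis genes fell in both lines, and 31 of them fell further in LNCaP. The median effect was -5.02 in LNCaP and -1.66 in 22Rv1, and the median difference was -3.33, against -0.03 over all genes tested. KIF20A, a kinesin of cytokinesis, had 0.218 and 0.324 CPM in LNCaP with CSN5i-3 and 49.1 and 43.4 CPM with DMSO. The levels in 22Rv1 were 29.5 and 31.5 CPM with CSN5i-3 and 98.9 and 93.5 CPM with DMSO. All LNCaP libraries with CSN5i-3 were under 1 CPM, and the groups of each line did not overlap. Its effect was -7.39 ± 0.19 in LNCaP and -1.66 ± 0.12 in 22Rv1, a difference of -5.73 ± 0.22 (adjusted p = 5.8e-05).

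TOP2A, the topoisomerase that untangles DNA in dividing cells, had 1.31 and 0.972 CPM in LNCaP with CSN5i-3 and 84.6 and 74.9 CPM with DMSO. In 22Rv1 the values were 128 and 157 CPM with CSN5i-3 and 497 and 439 CPM with DMSO. Within each line the groups did not overlap, and the difference was -4.41 ± 0.23 (adjusted p = 7.1e-05). KIF2C, a kinesin that corrects attachments to the kinetochore, had 0.819 and 0.823 CPM in LNCaP with CSN5i-3 and 44.1 and 42.5 CPM with DMSO, and its difference was -4.42 ± 0.14 (adjusted p = 5.0e-05). BIRC5, or survivin, of the chromosomal passenger complex, had 1.67 and 1.82 CPM in LNCaP with CSN5i-3 and 96.8 and 97.5 CPM with DMSO. 22Rv1 libraries had 51.6 and 45.8 CPM with CSN5i-3 and 173 and 190.0 CPM with DMSO, and the difference was -3.90 ± 0.16 (adjusted p = 5.8e-05). The mitotic kinase PLK1 (-3.56 ± 0.29), the kinetochore protein CENPF (-4.33 ± 0.18) and cyclin B1, CCNB1 (-2.07 ± 0.17), also had negative differences that passed the test. KIF23 was the member that did not pass. It fell by 1.60 in LNCaP and by 1.14 in 22Rv1, with a difference of -0.46 ± 0.20 (95% interval -0.93 to 0.01, adjusted p = 0.18). The count of called members was 31 in every fit that left out a library, with total counts and with DESeq2.

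DNA replication genes mostly fell in both lines. These are the genes that license origins, run the fork and supply nucleotides, and many are targets of the E2F factors that drive entry into S phase. Of 28 replication fork and nucleotide supply genes, 27 fell in LNCaP and 28 in 22Rv1, with median effects of -1.77 and -1.74. The difference was called for 11 of them, 10 lower and 1 higher in LNCaP, with a median of -0.24. Of 19 origin licensing genes, 18 fell in LNCaP and 16 in 22Rv1, with median effects of -2.28 and -1.93, and 7 had a lower effect in LNCaP (median difference -0.30). The fork count below 0 was 5 to 10 when a library was left out.

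RRM2, the regulated subunit of ribonucleotide reductase, had the lowest difference of the fork and nucleotide list. It had 1.77 and 1.82 CPM in LNCaP with CSN5i-3 and 86.0 and 80.5 CPM with DMSO. 22Rv1 cells had 83 and 94.3 CPM with CSN5i-3 and 478 and 419 CPM with DMSO. The difference was -3.19 ± 0.16 (adjusted p = 6.5e-05). PCNA, the sliding clamp of the fork, went the other way. It had 65.9 and 64.5 CPM in LNCaP with CSN5i-3 and 139 and 138 CPM with DMSO, against 118 and 124 CPM in 22Rv1 with CSN5i-3 and 410.2 and 413 CPM with DMSO. PCNA thus fell less in LNCaP, by 1.09 ± 0.07 there and by 1.76 ± 0.08 in 22Rv1, and the difference was 0.68 ± 0.10 (adjusted p = 0.0054). TYMS, which makes thymidylate, fell by 1.67 ± 0.09 in LNCaP and by 1.74 ± 0.09 in 22Rv1, with a difference of 0.07 (95% interval -0.22 to 0.36, adjusted p = 0.78). MCM7, a subunit of the replicative helicase, had a difference of 0.11 (95% interval -0.35 to 0.56, adjusted p = 0.78), and MCM10, which helps to start the helicase, one of -3.04 ± 0.35 (adjusted p = 0.0015). CDC45 (-2.27 ± 0.18) and CDC6 (-1.82 ± 0.16), which start replication, had lower effects in LNCaP.

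Genes of homologous recombination and the Fanconi pathway, which repair double-strand breaks and crosslinks, fell in 15 of 16 cases in LNCaP and in 16 of 16 in 22Rv1. Their median effect was -3.19 in LNCaP and -1.93 in 22Rv1, and 13 had a lower effect in LNCaP (8 to 12 with a library left out). BLM, the helicase mutated in Bloom syndrome, had 0.273 and 0.224 CPM in LNCaP with CSN5i-3 and 6.49 and 6.38 CPM with DMSO. For 22Rv1 the values were 12.5 and 14.5 CPM with CSN5i-3 and 55.5 and 46.8 CPM with DMSO. No group overlapped another within a line, and the difference was -2.76 ± 0.26 (adjusted p = 5.8e-04). RAD54L (-2.20 ± 0.19) and BRCA2 (-2.39 ± 0.28) passed the test in the same direction. DTL, the substrate receptor of the CUL4 ligase that clears CDT1 and p21 in S phase, had 0.901 and 1.02 CPM in LNCaP with CSN5i-3 and 25.5 and 22.0 CPM with DMSO. Its 22Rv1 values were 48.3 and 56.2 CPM with CSN5i-3 and 157 and 144 CPM with DMSO, and the difference was -3.09 ± 0.20 (adjusted p = 1.1e-04). Among 28 substrate receptors, 3 had a lower effect in LNCaP and none a higher one, a share near the 10% of all genes called lower.

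Targets of p53 rose in both lines with similar medians. Over all genes, 18.8% rose in LNCaP and 17% in 22Rv1, and the difference was called higher for 5.57% and lower for 10%. Of 26 tested, 22 rose in LNCaP and 21 in 22Rv1, with median effects of 1.42 and 1.32, and the difference was called for 5 higher and 3 lower (4 to 8 and 2 to 3 with a library left out). CDKN1A, which encodes the CDK inhibitor p21, had 3030 and 2960 CPM in LNCaP with CSN5i-3 and 248 and 267 CPM with DMSO. The levels in 22Rv1 were 717 and 568 CPM with CSN5i-3 and 65.5 and 77.5 CPM with DMSO. The effects were 3.54 ± 0.14 and 3.17 ± 0.14, and the difference of 0.37 (95% interval -0.06 to 0.80) did not pass the test (adjusted p = 0.23). MDM2, the ubiquitin ligase of p53, rose by 1.46 ± 0.10 in LNCaP, had an effect of 0.32 ± 0.10 in 22Rv1 (adjusted p = 0.051) and differed by 1.14 ± 0.14 (adjusted p = 0.0022). TP53I3, an oxidoreductase, had 65.4 and 61.3 CPM in LNCaP with CSN5i-3 and 5.83 and 6.43 CPM with DMSO, and its difference was 1.71 ± 0.17 (adjusted p = 8.4e-04). XPC, a sensor of damaged DNA, also had a higher effect in LNCaP, by 1.07 ± 0.12. PLK2 ran opposite. This kinase had 37.7 and 38.7 CPM in LNCaP with CSN5i-3 and 32.1 and 32.5 CPM with DMSO, against 52.5 and 63.4 CPM in 22Rv1 with CSN5i-3 and 7.60 and 7.03 CPM with DMSO. It rose in 22Rv1 by 2.98 ± 0.13, and the difference was -2.74 ± 0.17 (adjusted p = 1.0e-04).

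**Figure D2:**
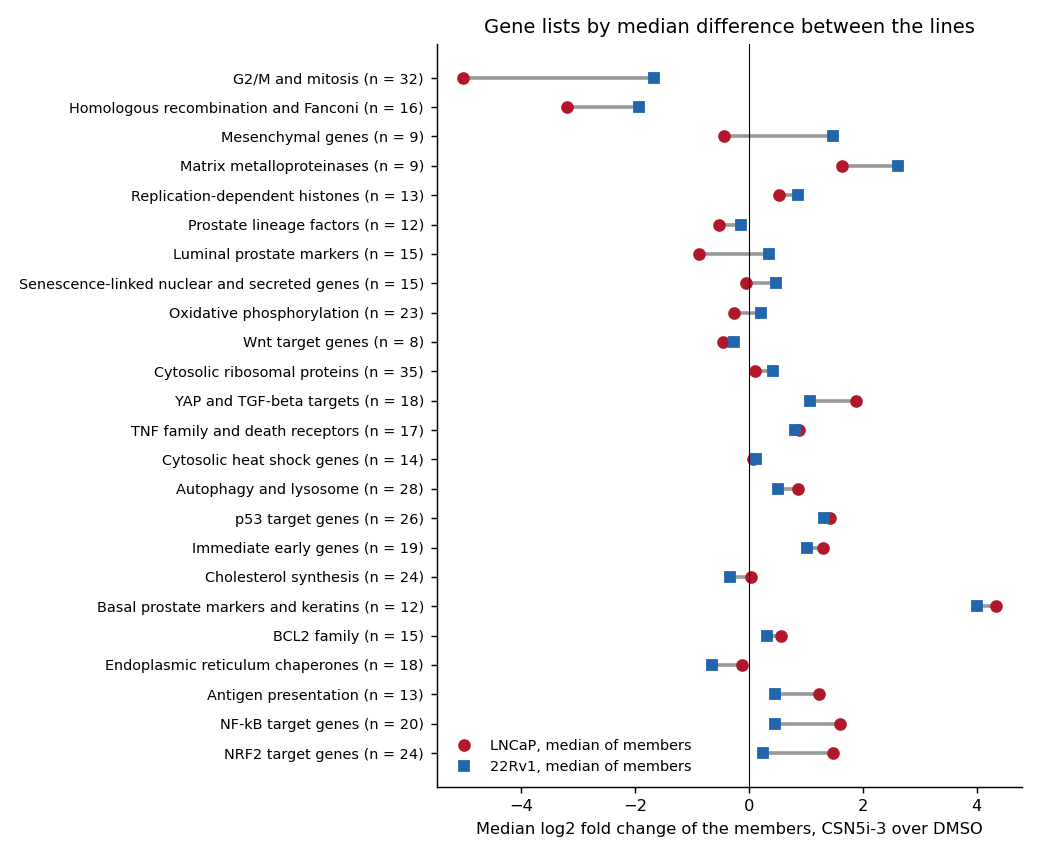
Median log2 fold change of the members in LNCaP (circles) and in 22Rv1 (squares) for 24 gene lists with at least 8 tested members, 12 from each end of the order of the median difference. G2/M and mitosis lies at -5.02 in LNCaP and -1.66 in 22Rv1, and NRF2 targets at 1.47 and 0.24.

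Androgen-induced genes mostly fell in LNCaP and were mixed in 22Rv1. Androgens maintain luminal prostate identity, and KLK3, which encodes prostate-specific antigen, is the best known gene they induce. Of 24 induced genes tested, 17 fell and 3 rose in LNCaP, while 9 fell and 4 rose in 22Rv1. The effect was lower in LNCaP for 10 and higher for 3 (8 to 11 and 1 to 4 with a library left out), with a median difference of -0.33. KLK3 had 368 and 369 CPM in LNCaP with CSN5i-3 and 2619 and 2672 CPM with DMSO. 22Rv1 libraries had 71.2 and 58.0 CPM with CSN5i-3 and 37.3 and 42 CPM with DMSO. KLK3 fell in LNCaP by 2.84 ± 0.12 and rose in 22Rv1 by 0.71 ± 0.11, a difference of -3.55 ± 0.16 (adjusted p = 5.8e-05). Reads of KLK3 and KLK2 may be split by the authors' counting, since the genes are near copies, and KLK2 had a difference of -2.33 ± 0.15 (adjusted p = 1.3e-04).

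TMPRSS2, the protease gene whose androgen-driven promoter is often fused in prostate cancer, had 206 and 202 CPM in LNCaP with CSN5i-3 and 355 and 359.9 CPM with DMSO. 22Rv1 cells had 76.8 and 69.4 CPM with CSN5i-3 and 32.5 and 34.7 CPM with DMSO. It thus fell in LNCaP and rose in 22Rv1, with a difference of -1.93 ± 0.12 (adjusted p = 1.0e-04). For SLC45A3, FKBP5 and FOXA1 no difference passed the test. SLC45A3, a luminal transporter, fell by 2.30 ± 0.17 in LNCaP and by 2.36 ± 0.17 in 22Rv1, with a difference of 0.06 (95% interval -0.47 to 0.59, adjusted p = 0.92). FKBP5, a co-chaperone, fell by 1.62 ± 0.10 in LNCaP and by 1.27 ± 0.10 in 22Rv1, with a difference of -0.34 (95% interval -0.68 to -0.01, adjusted p = 0.16). FOXA1, a pioneer factor of the luminal prostate lineage, fell by 0.70 ± 0.07 and by 0.61 ± 0.07, a difference of -0.08 (95% interval -0.32 to 0.15, adjusted p = 0.64).

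Of 12 lineage factors, 7 had a lower effect in LNCaP and none a higher one (5 to 7 with a library left out). Of 15 luminal markers, 5 were lower and 1 higher (4 to 7 and 0 to 1). Shares over all genes were 10% lower and 5.57% higher. ETV1, an ETS factor that LNCaP expresses from a translocated locus, had 29.4 and 30.9 CPM in LNCaP with CSN5i-3 and 166 and 148 CPM with DMSO. For 22Rv1 the values were 53.5 and 60.2 CPM with CSN5i-3 and 32.9 and 31.3 CPM with DMSO, and the difference was -3.20 ± 0.15 (adjusted p = 6.4e-05). The glucocorticoid receptor NR3C1 was under 1 CPM in all 4 LNCaP libraries and stood at 85.6 and 103 CPM in 22Rv1 with CSN5i-3 and at 50.8 and 42.4 CPM with DMSO. It rose in 22Rv1 by 1.02 ± 0.15, and the difference was -2.89 ± 0.34 (adjusted p = 0.0017). FOLH1, prostate-specific membrane antigen, fell in LNCaP by 1.19 ± 0.11, had an effect of 0.35 ± 0.11 in 22Rv1 (adjusted p = 0.05) and differed by -1.54 ± 0.16 (adjusted p = 9.7e-04).

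Genes with opposite calls included enzymes that inactivate androgens. UGT2B15, which inactivates androgens by adding glucuronic acid, had 19.2 and 19.3 CPM in LNCaP with CSN5i-3 and 56.7 and 50.3 CPM with DMSO. Its 22Rv1 values were 69.3 and 82.1 CPM with CSN5i-3 and 26.7 and 23.8 CPM with DMSO. It fell in LNCaP by 1.47 ± 0.13 and rose in 22Rv1 by 1.58 ± 0.13, with a difference of -3.06 ± 0.18 (adjusted p = 9.4e-05). Its near-identical neighbour UGT2B17 differed by -3.82 ± 0.22 (adjusted p = 9.0e-05), and reads shared by the pair make their separate values uncertain. ACPP, prostatic acid phosphatase, had 25.5 and 26.3 CPM in LNCaP with CSN5i-3 and 63.7 and 57.9 CPM with DMSO, against 27.2 and 29.2 CPM in 22Rv1 with CSN5i-3 and 15 and 13.6 CPM with DMSO. That is a difference of -2.21 ± 0.16 (adjusted p = 1.7e-04). LRRN1 (-4.01 ± 0.20), PALMD (-3.79 ± 0.24), SLITRK3 (-3.68 ± 0.21) and KLHL13 (-2.98 ± 0.20) fell in LNCaP and rose in 22Rv1. KLHL13 is an adaptor of the CUL3 ligase.

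In the other direction, DPYSL2, a regulator of microtubules, had 41.0 and 46.1 CPM in LNCaP with CSN5i-3 and 15.9 and 16.2 CPM with DMSO. The levels in 22Rv1 were 92.0 and 89.5 CPM with CSN5i-3 and 168 and 168 CPM with DMSO, and the difference was 2.33 ± 0.13 (adjusted p = 9.0e-05). SECTM1, a secreted and membrane protein of immune signalling, had 64.3 and 59.9 CPM in LNCaP with CSN5i-3 and 14 and 15.8 CPM with DMSO, and it differed by 3.21 ± 0.33 (adjusted p = 9.4e-04). KDELC2 (3.76 ± 0.35) and PGBD5 (2.46 ± 0.33) also rose in LNCaP and fell in 22Rv1. POTEF did so by 2.08 ± 0.30, and it belongs to a family of near-identical copies, so its reads are uncertain.

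**Figure D3:**
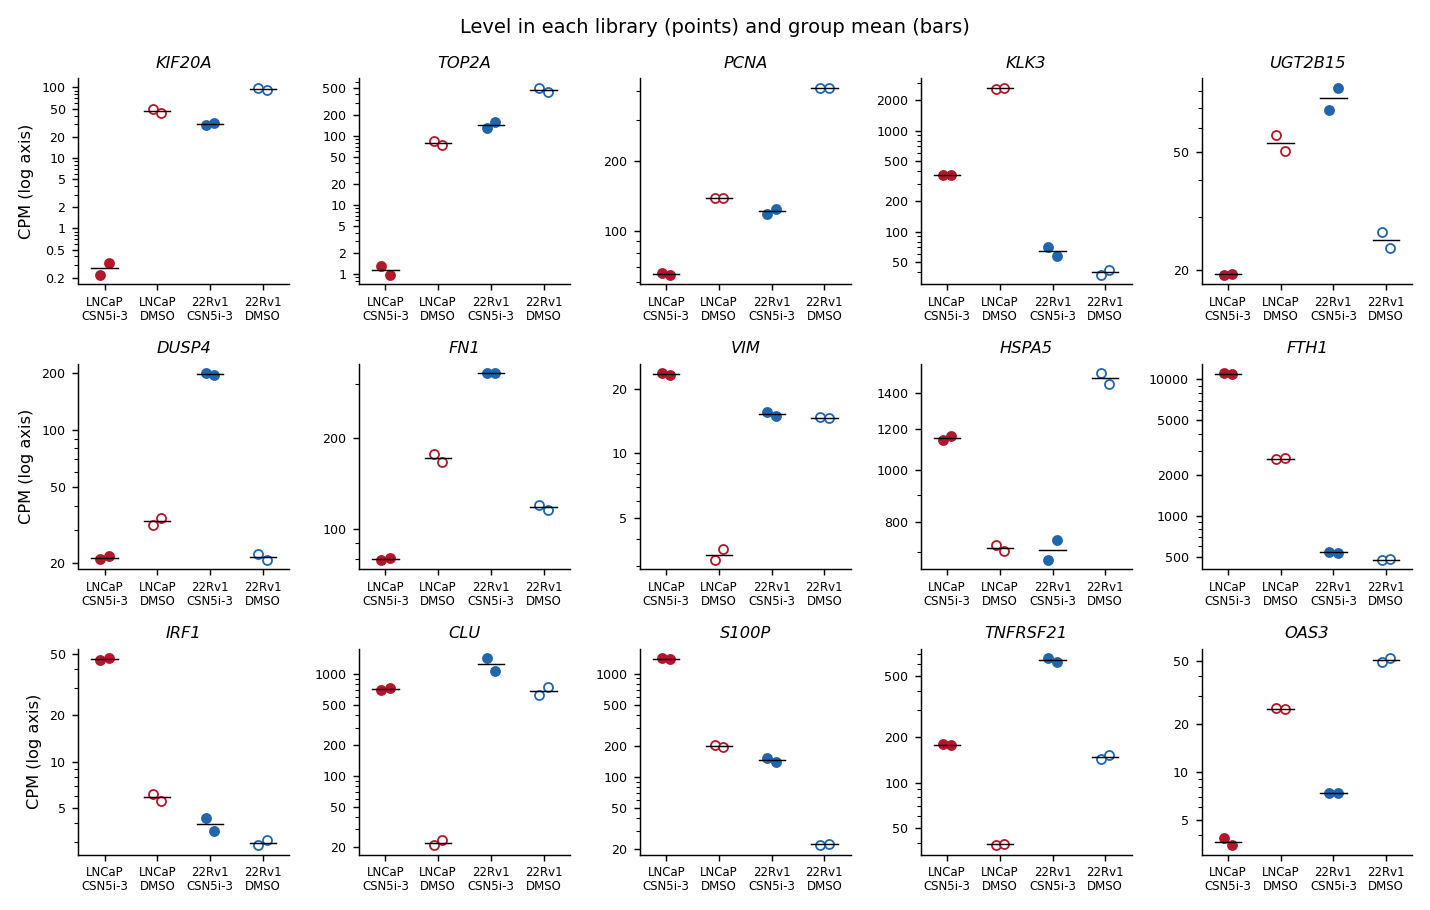
CPM on a log axis in each of the 8 libraries for 15 genes, 1 panel per gene, with LNCaP CSN5i-3, LNCaP DMSO, 22Rv1 CSN5i-3 and 22Rv1 DMSO from left to right. KLK3 falls in LNCaP (368 and 369 against 2619 and 2672 CPM) and rises in 22Rv1, while S100P rises in both.

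Feedback genes of the MAP kinase pathway, which are induced by ERK and damp its signal, mostly rose in both lines, 10 of 17 in LNCaP and 13 in 22Rv1, while 4 fell in LNCaP and none in 22Rv1. The difference was called for 4 lower and 3 higher, while 10% of all genes were called lower and 5.57% higher. DUSP4, a phosphatase of ERK, had 21.1 and 21.7 CPM in LNCaP with CSN5i-3 and 31.6 and 34.6 CPM with DMSO. 22Rv1 libraries had 199 and 195 CPM with CSN5i-3 and 22.2 and 20.7 CPM with DMSO. DUSP4 thus fell by 0.63 ± 0.09 in LNCaP and rose by 3.20 ± 0.10 in 22Rv1, a difference of -3.83 ± 0.14 (adjusted p = 5.0e-05). SPRY2, an inhibitor of receptor tyrosine kinase signalling, had 0.437 and 0.424 CPM in LNCaP with CSN5i-3 and 1.61 and 1.62 CPM with DMSO, against 34.3 and 34.7 CPM in 22Rv1 with CSN5i-3 and 15.2 and 15.7 CPM with DMSO. Its difference was -3.06 ± 0.19 (adjusted p = 1.0e-04), and that of its relative SPRY1 was -2.90 ± 0.20 (adjusted p = 1.6e-04). DUSP6 rose in both lines but further in 22Rv1 (-1.86 ± 0.21, adjusted p = 0.0012).

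Other members rose further in LNCaP. PHLDA1 had 6.74 and 6.43 CPM in LNCaP with CSN5i-3 and 0.528 and 0.687 CPM with DMSO, against 44.2 and 42.3 CPM in 22Rv1 with CSN5i-3 and 11.6 and 11.1 CPM with DMSO. The difference was 1.50 ± 0.20 (adjusted p = 0.003). ETV5, an ETS factor, differed by 1.93 ± 0.18 (adjusted p = 6.7e-04), and the immediate early factor EGR1 by 2.43 ± 0.35 (adjusted p = 0.0041). DUSP5, a nuclear phosphatase of ERK, rose steeply in both. It had 101 and 103 CPM in LNCaP with CSN5i-3 and 2.90 and 2.82 CPM with DMSO, and 32.5 and 31.4 CPM in 22Rv1 with CSN5i-3 and 0.738 and 0.637 CPM with DMSO, and the difference was -0.37 (95% interval -0.76 to 0.02, adjusted p = 0.24).

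Among the largest negative differences were genes that rose in 22Rv1 and hardly moved or fell in LNCaP. TM4SF1, a surface protein of the tetraspanin-like family, had 10.5 and 11.8 CPM in LNCaP with CSN5i-3 and 21.3 and 20.5 CPM with DMSO. 22Rv1 cells had 5.36 and 6.08 CPM with CSN5i-3 and 0.197 and 0.249 CPM with DMSO, and the difference was -5.58 ± 0.24 (adjusted p = 5.8e-05). REG4, a secreted lectin of gut epithelium, was 0.30 and 0.249 CPM in LNCaP with CSN5i-3 and 0.343 and 0.393 CPM with DMSO, against 191 and 207 CPM in 22Rv1 with CSN5i-3 and 7.01 and 5.65 CPM with DMSO. REG4 stayed under 1 CPM in all 4 LNCaP libraries, and the difference was -5.40 ± 0.31 (adjusted p = 9.1e-05). MAPK4, an atypical MAP kinase, had 106 and 97.6 CPM in 22Rv1 with CSN5i-3 and 4.01 and 4.07 CPM with DMSO, and a difference of -5.36 ± 0.19 (adjusted p = 5.0e-05). MALL (-5.37 ± 0.31) and the trypsinogen PRSS3 (-5.29 ± 0.33) followed the same pattern. NMU, a neuropeptide, fell in both lines. In LNCaP it had 2 counts over both libraries with CSN5i-3 and 209 with DMSO, a ratio of 0.00897 (95% counting interval 0.00108 to 0.0328), so its fitted difference depends on the prior count.

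Among the largest positive differences were genes that rose from low levels in LNCaP. CLU, the secreted chaperone clusterin, had 703 and 729 CPM in LNCaP with CSN5i-3 and 20.9 and 23.5 CPM with DMSO. For 22Rv1 the values were 1448 and 1069 CPM with CSN5i-3 and 631 and 754 CPM with DMSO. CLU rose by 5.01 ± 0.18 in LNCaP and by 0.86 ± 0.15 in 22Rv1, a difference of 4.15 ± 0.23 (adjusted p = 8.4e-05). EDN1, the vasoconstrictor peptide endothelin-1, had 15 and 13.6 CPM in LNCaP with CSN5i-3 and 0.158 and 0.123 CPM with DMSO, against 23.1 and 23.5 CPM in 22Rv1 with CSN5i-3 and 4.63 and 4.76 CPM with DMSO. The difference was 4.33 ± 0.24 (adjusted p = 8.4e-05). MUC20, a membrane mucin, had 42.9 and 42.2 CPM in LNCaP with CSN5i-3 and 1.61 and 2.18 CPM with DMSO and was under 1 CPM in all 4 libraries of 22Rv1 (4.43 ± 0.32, adjusted p = 2.1e-04). PAK6, a serine/threonine kinase, differed by 4.63 ± 0.30, and TNC, the matrix protein tenascin C, by 4.33 ± 0.32. TNC fell in 22Rv1. KRT7, a simple-epithelium keratin, had 295 counts over both LNCaP libraries with CSN5i-3 and 2 with DMSO, a ratio of 138 (95% counting interval 37.9 to 1146). Such counting intervals leave out differences between cultures.

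Of the mesenchymal genes, 9 of 15 were expressed enough to test, 2 had a higher and 5 a lower effect in LNCaP (2 to 5 lower with a library left out), and they did not move as a group. FN1, the matrix protein fibronectin, had 79.2 and 80.3 CPM in LNCaP with CSN5i-3 and 178 and 166 CPM with DMSO. Its 22Rv1 values were 327 and 327 CPM with CSN5i-3 and 121 and 116 CPM with DMSO. FN1 fell in LNCaP and rose in 22Rv1, a difference of -2.58 ± 0.11 (adjusted p = 5.8e-05). VIM, the intermediate filament vimentin, had 23.6 and 23 CPM in LNCaP with CSN5i-3 and 3.19 and 3.58 CPM with DMSO, against 15.6 and 15 CPM in 22Rv1 with CSN5i-3 and 14.7 and 14.6 CPM with DMSO. VIM rose in LNCaP and had an effect of 0.06 ± 0.11 in 22Rv1 (adjusted p = 0.74), with a difference of 2.72 ± 0.16 (adjusted p = 9.4e-05). The repressor SNAI2 had a difference of 3.23 ± 0.48 (adjusted p = 0.0045). SPARC had 43 counts over both 22Rv1 libraries with CSN5i-3 and 2 with DMSO, a ratio of 21.5 (95% counting interval 5.59 to 183). Among targets of YAP and TGF-beta, 6 of 18 had a higher and 2 a lower effect in LNCaP (3 to 6 and 0 to 3 with a library left out). The median difference of this list was nevertheless -0.33 (-0.44 to -0.12 with a library left out), so the list did not move as a group. ID2, an inhibitor of basic helix-loop-helix factors, had 63.8 and 63.7 CPM in LNCaP with CSN5i-3 and 7.55 and 7.34 CPM with DMSO, against 345 and 334 CPM in 22Rv1 with CSN5i-3 and 203 and 209 CPM with DMSO. Its difference was 2.38 ± 0.11 (adjusted p = 5.8e-05), and its relative ID1 differed by 2.13 ± 0.36 (adjusted p = 0.008).

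Chaperones of the endoplasmic reticulum, which fold secreted proteins and are induced by the unfolded protein response, fell in 22Rv1 more than in LNCaP. Of 18 tested, 14 fell and 1 rose in 22Rv1, while 7 fell and 4 rose in LNCaP. The effect was higher in LNCaP for 10 and lower for none, with a median difference of 0.54. With a library left out the count was 3 to 12. HSPA5, the master chaperone BiP, had 1144 and 1162 CPM in LNCaP with CSN5i-3 and 723 and 702 CPM with DMSO. The levels in 22Rv1 were 676 and 737 CPM with CSN5i-3 and 1530.1 and 1458 CPM with DMSO. HSPA5 rose in LNCaP by 0.69 ± 0.08 and fell in 22Rv1 by 1.08 ± 0.08, a difference of 1.77 ± 0.11 (adjusted p = 1.0e-04). HSP90B1, the chaperone GRP94, fell in both lines, by 0.55 ± 0.10 in LNCaP and by 1.48 ± 0.10 in 22Rv1, and differed by 0.93 ± 0.14 (adjusted p = 0.0058). PDIA4, a disulfide isomerase, fell in both and differed by 0.92 ± 0.13 (adjusted p = 0.0032). DDIT3, the stress factor CHOP, had 239 and 248 CPM in LNCaP with CSN5i-3 and 96.3 and 85.5 CPM with DMSO, against 57.0 and 56.6 CPM in 22Rv1 with CSN5i-3 and 41.2 and 39.0 CPM with DMSO, and differed by 0.92 ± 0.13 (adjusted p = 0.0036). The ATF4 gene rose in both lines, with a difference of 0.03 (95% interval -0.19 to 0.25), and ASNS, asparagine synthetase, had a lower effect in LNCaP (-0.95 ± 0.16, adjusted p = 0.0071). Across 25 genes of the integrated stress response, 5 had a higher and 5 a lower effect in LNCaP (1 to 5 and 2 to 6 with a library left out).

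Targets of NRF2, the factor of the antioxidant response that the CUL3 adaptor KEAP1 keeps low, rose more widely in LNCaP. Of 24 tested, 20 rose and none fell in LNCaP, while 10 rose and 2 fell in 22Rv1. Median effects were 1.47 in LNCaP and 0.24 in 22Rv1. The effect was higher in LNCaP for 10 and lower for 1 (6 to 13 and 0 to 1 with a library left out), and the median difference was 0.79. FTH1, the ferritin heavy chain that stores iron, had 11169 and 10923 CPM in LNCaP with CSN5i-3 and 2593 and 2644 CPM with DMSO. 22Rv1 libraries had 539.8 and 532 CPM with CSN5i-3 and 471 and 478 CPM with DMSO. FTH1 rose by 2.08 ± 0.07 in LNCaP and had an effect of 0.18 ± 0.07 in 22Rv1 (adjusted p = 0.1), a difference of 1.90 ± 0.10 (adjusted p = 7.1e-05). Ferritin has many processed copies in the genome, and reads shared with them may have been counted elsewhere.

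The subunits of the enzyme that starts glutathione synthesis both differed. GCLC, the catalytic one, had 30.8 and 31.1 CPM in LNCaP with CSN5i-3 and 19.4 and 18.7 CPM with DMSO, against 105 and 122 CPM in 22Rv1 with CSN5i-3 and 214 and 183 CPM with DMSO. It rose in LNCaP and fell in 22Rv1, a difference of 1.50 ± 0.16 (adjusted p = 0.0011), and GCLM, the modifier, differed by 1.22 ± 0.18 (adjusted p = 0.0045). PGD, of the pentose phosphate pathway, differed by 1.33 ± 0.15 (adjusted p = 0.0012). AKR1C1, a steroid-reducing enzyme, rose in both lines and further in LNCaP (1.72 ± 0.25, adjusted p = 0.0044), with the reservation that AKR1C1, AKR1C2 and AKR1C3 are near copies. HMOX1, heme oxygenase, rose in both, by 1.80 ± 0.20 in LNCaP and by 2.01 ± 0.21 in 22Rv1, with a difference of -0.21 (95% interval -0.86 to 0.44, adjusted p = 0.68). A part of the antioxidant response element (TGACNNNGC, either strand) was in 5 of 18 promoters of this list (27.8%) and in 13.6% of all promoters. Other lists had similar or lower shares. They were 5 of 24 for replication fork genes (20.8%), 5 of 26 for mitotic genes (19.2%), 3 of 17 for origin licensing (17.6%) and 1 of 13 for homologous recombination (7.7%). The motif therefore does not set this list apart.

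Targets of NF-kB, whose inhibitor is degraded by a cullin ligase, rose in 16 of 20 cases in LNCaP and in 5 in 22Rv1, with median effects of 1.60 and 0.45. The effect was higher in LNCaP for 5 and lower for none (3 to 7 higher with a library left out), with a median difference of 0.68. Over all genes, 18.8% rose in LNCaP, 17% rose in 22Rv1 and 5.57% had a higher effect in LNCaP. IRF1, a transcription factor of the interferon response, had 45.5 and 47.1 CPM in LNCaP with CSN5i-3 and 6.23 and 5.57 CPM with DMSO. 22Rv1 cells had 4.35 and 3.58 CPM with CSN5i-3 and 2.88 and 3.10 CPM with DMSO, and the difference was 2.57 ± 0.20 (adjusted p = 2.6e-04). NFKBIA, the inhibitor IkB-alpha and itself a target, had 92.9 and 93.0 CPM in LNCaP with CSN5i-3 and 50.6 and 52.4 CPM with DMSO, against 49.4 and 43.3 CPM in 22Rv1 with CSN5i-3 and 58.5 and 65.5 CPM with DMSO. NFKBIA rose in LNCaP and fell in 22Rv1, a difference of 1.27 ± 0.15 (adjusted p = 0.0016). BIRC3, an inhibitor of apoptosis, rose in both lines, by 3.06 ± 0.15 in LNCaP and by 2.79 ± 0.16 in 22Rv1 (difference 0.27, 95% interval -0.22 to 0.76, adjusted p = 0.45).

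Antigen presentation genes rose in 11 of 13 cases in LNCaP and in 5 in 22Rv1, and 4 had a higher effect in LNCaP (3 to 7 with a library left out). TAP1, the peptide transporter, had 81.2 and 77.0 CPM in LNCaP with CSN5i-3 and 29.6 and 30.5 CPM with DMSO, against 36.4 and 32.0 CPM in 22Rv1 with CSN5i-3 and 32.0 and 33.5 CPM with DMSO. The 22Rv1 groups overlapped, and the difference was 1.33 ± 0.15 (adjusted p = 0.0012). The immunoproteasome subunits PSMB9 (3.15 ± 0.39, adjusted p = 0.002) and PSMB8 (1.35 ± 0.21, adjusted p = 0.0052) had higher effects in LNCaP. Shares over all genes were 5.57% higher and 10% lower. Interferon-stimulated genes did not share a direction, with 2 of 25 higher and 6 lower in LNCaP (1 to 3 and 0 to 4 with a library left out). RSAD2, the antiviral protein viperin, had 4.21 and 3.99 CPM in LNCaP with CSN5i-3 and 0.237 and 0.0491 CPM with DMSO, against 1.61 and 1.58 CPM in 22Rv1 with CSN5i-3 and 3.86 and 3.38 CPM with DMSO, and differed by 6.02 ± 0.47 (adjusted p = 2.8e-04).

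**Figure D4:**
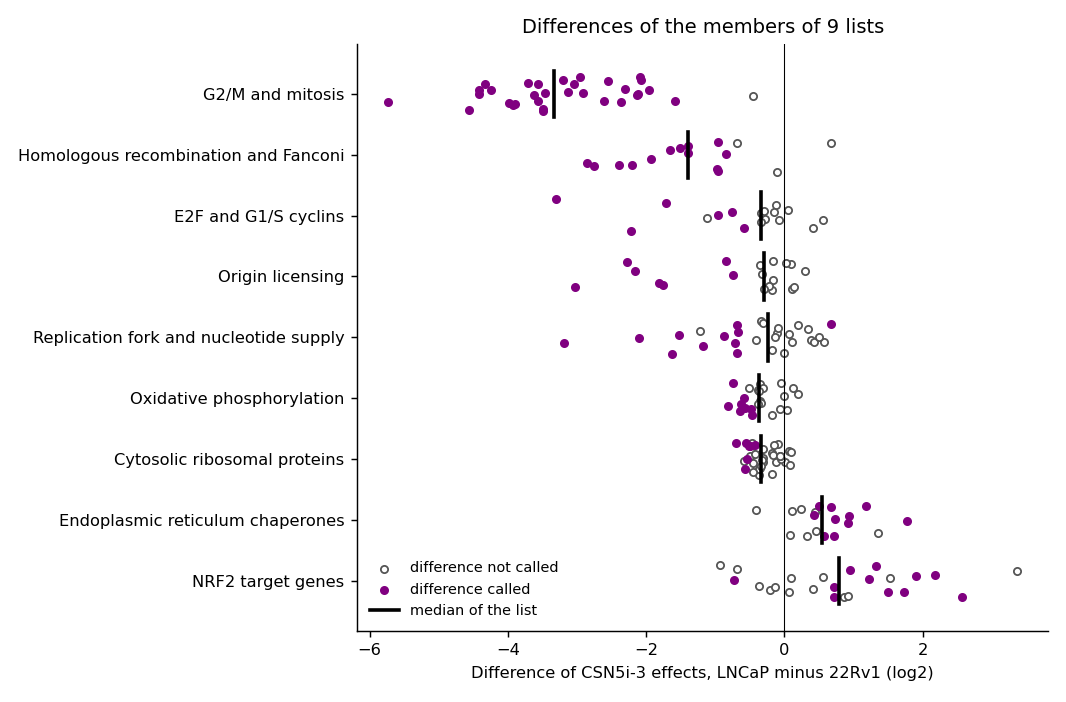
Each point is a member of 1 of 9 gene lists, placed along the horizontal axis by its log2 difference (LNCaP minus 22Rv1), with called members filled and the median as a bar. Mitotic genes lie left of 0 with KIF23 nearest to it at -0.46, and NRF2 targets and endoplasmic reticulum chaperones lie mostly right of 0.

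Several metabolic lists held called differences. Over all genes, the difference was called lower for 10% and higher for 5.57%, while 18.8% rose in LNCaP and 17% in 22Rv1. Subunits of oxidative phosphorylation had a lower effect in LNCaP for 8 of 23 and a higher one for none, with a median difference of -0.36, but the count was 1 to 11 with a library left out and 3 with DESeq2. ATP5B, a catalytic subunit of ATP synthase, had 1365 and 1371 CPM in LNCaP with CSN5i-3 and 2005 and 1912 CPM with DMSO, against 2580 and 2735 CPM in 22Rv1 with CSN5i-3 and 2244 and 2086 CPM with DMSO. It fell in LNCaP and rose in 22Rv1, a difference of -0.81 ± 0.11 (adjusted p = 0.0033). Cytosolic ribosomal protein genes rose in 21 of 35 cases in 22Rv1 and in 3 in LNCaP. Their difference was called lower for 7 (0 to 10 with a library left out, 13 with total counts, 1 with DESeq2), with a median of -0.34. Cholesterol synthesis genes had a higher effect in LNCaP for 5 of 24 (3 to 7 with a library left out). Among them, FDFT1, which makes squalene, rose in LNCaP by 0.76 ± 0.08, had an effect of 0.01 ± 0.08 in 22Rv1 and differed by 0.75 ± 0.12 (adjusted p = 0.0055).

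Many genes moved by similar amounts in the lines. Both effects were called in the same direction, with no call of a difference, for 2355 genes, 1228 up and 1127 down. At a mean of at least 5 CPM, the 95% interval of the difference lay within 0.5 of 0 on the log2 scale for 284 genes that rose and 232 that fell in both lines. Such an interval can be too narrow where a group has few counts, so these numbers can include genes that are not near-equal. IL32 is among the genes that rose, with 1 count in 22Rv1 with DMSO. Its difference took -2.28 to 0.865 with a library left out. S100P, a calcium-binding protein, had 1413 and 1384 CPM in LNCaP with CSN5i-3 and 203 and 195 CPM with DMSO. For 22Rv1 the values were 152 and 141 CPM with CSN5i-3 and 22.0 and 22.8 CPM with DMSO. The effects were 2.81 ± 0.08 and 2.71 ± 0.08, and the difference was 0.10 (95% interval -0.16 to 0.36, adjusted p = 0.61). TNFRSF21, a death receptor, had 178 and 175 CPM in LNCaP with CSN5i-3 and 38.8 and 39.7 CPM with DMSO, against 654 and 617 CPM in 22Rv1 with CSN5i-3 and 143 and 151 CPM with DMSO. Its difference was 0.06 (95% interval -0.20 to 0.31). The ligand-activated factor AHR rose by 2.26 ± 0.14 in LNCaP and by 2.23 ± 0.13 in 22Rv1, and the lipid kinase DGKA by 2.04 ± 0.11 and 2.17 ± 0.11.

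Among genes that fell alike, OAS3, an antiviral synthetase, had 3.82 and 3.47 CPM in LNCaP with CSN5i-3 and 25 and 24.7 CPM with DMSO. Its 22Rv1 values were 7.39 and 7.41 CPM with CSN5i-3 and 48.7 and 51.8 CPM with DMSO, and the difference was -0.01 (95% interval -0.33 to 0.32). NCAPH, a condensin subunit, fell by 2.01 ± 0.10 in LNCaP and by 1.89 ± 0.10 in 22Rv1. The linker histone H1F0 fell by 1.77 ± 0.08 and by 1.92 ± 0.08, and the nuclease DCLRE1B by 1.72 ± 0.12 and by 1.73 ± 0.11.

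The series also holds knockdown libraries of the same lines, which share no library with those above. In them shCSN5 is set against a scramble shRNA, with 2 libraries per group, totals of 20607109 to 30876709 counts and the lines again in separate tables. COPS5 fell by 4.58 in LNCaP and by 2.71 in 22Rv1 on the log2 scale, a difference of -1.87 (adjusted p = 0.0015), so the knockdown itself was deeper in LNCaP. The shCSN5 effect differed between the lines for 3920 of 17171 genes (22.8%), 1857 higher (10.8%) and 2063 lower (12%) in LNCaP. The count was 7920 without LNCaP shCSN5 replicate 2, 1707 and 1741 without LNCaP scramble replicate 1 and 2, 1900 and 2115 without 22Rv1 shCSN5 replicate 1 and 2, and 2270 without 22Rv1 scramble replicate 2. Of 15655 genes tested in both experiments, 1173 were called in both, which is 41.6% of the 2819 inhibitor calls and 30.6% of the 3839 knockdown calls. The direction was the same for 997 and opposite for 176.

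In the knockdown all 32 mitotic genes had a lower effect in LNCaP, with a median difference of -2.58. KIF20A differed by -2.40 (adjusted p = 4.0e-05), TOP2A by -2.59 (adjusted p = 2.0e-05) and KIF23, which did not pass with the inhibitor, by -1.71 (adjusted p = 8.5e-04). KLK3 had a knockdown effect of -0.36 in LNCaP and of 2.16 in 22Rv1, a difference of -2.52 (adjusted p = 2.1e-05). The list of KLK3 went the other way. Of 24 androgen-induced genes, 11 had a higher and 4 a lower knockdown effect in LNCaP, with a median difference of 0.45. With the inhibitor 3 were higher and 10 lower. Of 12 lineage factors, 6 were higher and 1 lower (median 0.46), against none and 7 with the inhibitor. Knockdown shares over all genes were 10.8% higher and 12% lower. Cholesterol synthesis had 1 higher and 9 lower of 24 (median -0.36), and oxidative phosphorylation 5 and 3 of 23 (median 0.11). Counts higher and lower were 4 and 5 of 18 endoplasmic reticulum chaperones, 6 and 2 of 24 NRF2 targets (median 0.09) and 2 and 4 of 13 antigen presentation genes. NF-kB targets (6 and 0 of 19) and homologous recombination genes (1 and 14 of 16) kept the direction seen with the inhibitor. DUSP4 rose in both lines with shCSN5, by 1.23 in LNCaP and by 2.18 in 22Rv1 (difference -0.95, adjusted p = 0.0017). IRF1 differed by 2.12 (adjusted p = 2.8e-04) and VIM by 2.08 (adjusted p = 1.7e-04), with the sign seen for the inhibitor. For HSPA5 the knockdown difference was 0.04 (adjusted p = 0.86). Genes that moved alike with the inhibitor could still differ here, as S100P did by 1.04 (adjusted p = 7.9e-04) and OAS3 by -1.44 (adjusted p = 4.6e-04). Of 137 named genes with the inhibitor difference called and a knockdown value, 82 were called in the knockdown as well, 75 with the same sign and 7 with the opposite one. The 7 include EGR1 (-1.17), PHLDA1 (-0.88), SESN1 (0.76) and PDIA4 (-0.57). With the inhibitor SESN1 differed by -1.08.

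**Figure D5:**
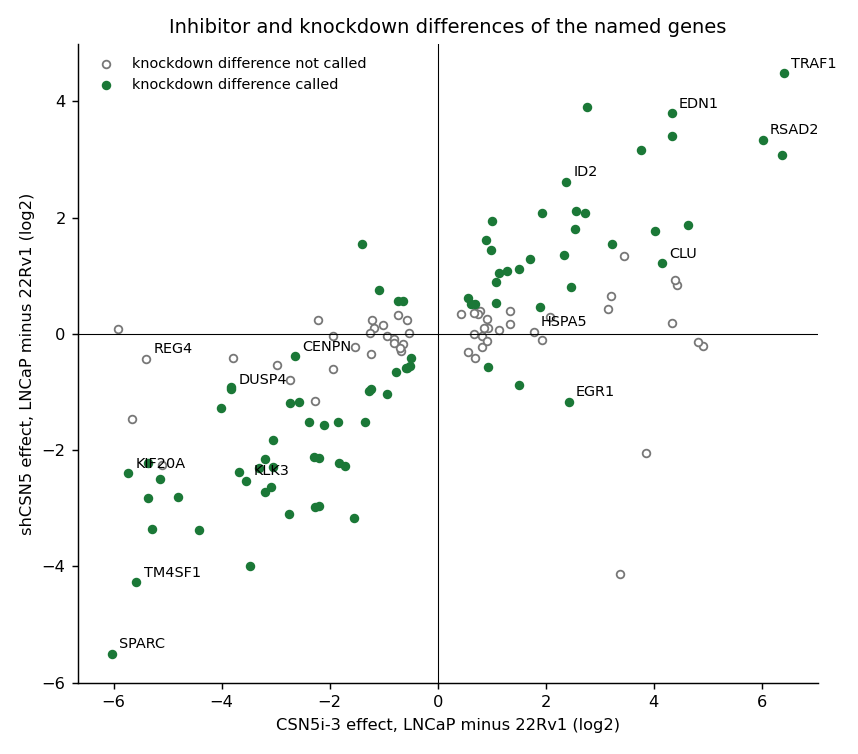
Log2 difference between the lines (LNCaP minus 22Rv1) for the named genes, with the inhibitor on the horizontal axis and the shCSN5 knockdown on the vertical axis, filled where the knockdown difference was called. KIF20A lies at -5.73 with the inhibitor and -2.40 with the knockdown, and HSPA5 at 1.77 and 0.04.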

How the data were processed

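The authors deposited whole-number counts per gene and library, with 1 table per cell line in the inhibitor experiment. Partek Flow is named in the submitters' processing notes; for the aligner, genome build and strand setting, the labels name none. The LNCaP table holds 21549 symbols with at least 3 counts in some library, and that of 22Rv1 holds 57445 identifiers. Symbols found once in each were joined; 284 entries of 22Rv1 at 5 CPM or more have no row in the LNCaP table and were not analysed here, nor were 21 symbols turned into dates in the LNCaP table and 28 in that of 22Rv1.

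Counts were filtered with filterByExpr (minimum count 10), scaled by TMM and fitted with edgeR 4.0.16 (limma 3.58.1, R 4.3.3) by quasi-likelihood over 8 libraries and 4 group means, which leaves 4 residual degrees of freedom. Standard errors are the log2 value divided by the square root of F, and a gene was called at an adjusted p under 0.05. Errors so derived can be too small where a group has few counts. CPM in the text use library totals of the filtered genes, scaled by the TMM factors. Only the 5 CPM limit for the 284 entries of 22Rv1 without a LNCaP row used plain library totals. The labels do not say that the libraries of a group were separate cultures, so the p-values cover no more than library-to-library spread, which may be technical. Intervals of differences come from this fit and include the spread between libraries, while those of count ratios, and floors, cover counting error only. Tested on simulated data for this comparison (17884 genes), the fit recovered 29.3% of 99 changes of 1 and 74.7% of 99 changes of 2 on the log2 scale, with 15 false calls. In the simulation each gene had the same mean in all groups, and only the changed genes were shifted, in LNCaP with CSN5i-3. Far fewer genes changed than were called here, and the noise did not follow GC content. These rates therefore need not hold for the data.

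The members and the 44 gene lists were chosen with earlier results of these data known. Named genes were COPS5; the 10 largest differences each way at a mean of 5 CPM with single-library differences of the lines not overlapping; the 6 opposite genes each way with the largest smaller effect; 5 genes each way that moved by similar amounts; and up to 2 members of each list each way by smallest adjusted p. Except for list members, these picks passed over clone-based, uncharacterised, antisense and pseudogene-like names. Most symbols ending in P and a digit, such as DUSP4, were passed over with them, so larger differences can be missing from the picks. Single-library differences did not overlap for any of the 2887 called genes, so that condition removed none. Other list members named (such as TOP2A, CDKN1A, TMPRSS2, DUSP5, HMOX1 and BIRC3) were chosen after their values were seen, and so was the ARE motif. Members that lost their call when a library was left out were mostly passed over in the text. Alternatives were DESeq2 1.42.0, total counts, other filters, a robust prior, single lines, a replicate block and each library left out, where a lone library is assumed to vary like the others. Some members of the lists are not reported here. Scripts ran in Python 3.11.15.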

Additional observations from a re-analysis of the deposited data

Results flagged for a closer look

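The effect of CSN5i-3 differed between LNCaP and 22Rv1 for 2887 genes by the interaction test over all genes. Among the named genes with opposite calls in the lines, the effect was higher in LNCaP, by the same test, for KDELC2 (3.76), SECTM1 (3.21), GDNF (2.76), PGBD5 (2.46), DPYSL2 (2.33) and POTEF (2.08). GDNF, a neurotrophic growth factor, lost its call by the same test without LNCaP DMSO replicate 1, at an adjusted p of 0.066 and a difference of 2.47. The effect was lower in LNCaP for LRRN1 (-4.01), UGT2B17 (-3.82), PALMD (-3.79), SLITRK3 (-3.68), UGT2B15 (-3.06) and KLHL13 (-2.98). These values are log2 differences of the fit, and no explanation of them was tested.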

How the results depend on the processing

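With 2 libraries per group, the counts of calls depend on single libraries, and the cause was not tested. Leaving out 1 library at a time gave 1234 to 3471 differing genes against 2887, with 387 to 1484 higher and 847 to 1987 lower in LNCaP; 3916 to 8046 genes moved in LNCaP; 3666 to 5763 moved in 22Rv1; 172 to 450 had opposite calls; and 1707 to 7920 differed in the knockdown. DESeq2 gave 211 opposite genes against 376. Total counts, DESeq2 and no filter otherwise kept these counts within 1.5 times, as did a minimum count of 50, which was not run for the knockdown, and a robust prior, which was run for the differing and opposite genes of the inhibitor.

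Replicate numbers do not pair the samples: replicate differences of treated and control pairs correlated at -0.437 in LNCaP and -0.917 in 22Rv1 across genes. With the replicate number as a block, 815 genes differed (237 higher, 578 lower), 3909 moved in LNCaP, 2630 in 22Rv1 and 112 were opposite; for the knockdown, where the correlations were -0.147 and 0.696, it gave 3609. After the data were seen, 2 alternatives were added. A crossed block paired treated replicate 1 with control replicate 2, and treated 2 with control 1. The negative correlations above favour that pairing in these same data, so its counts are no independent check. The crossed block called 7579 genes (3645 higher, 3934 lower), 11122 in LNCaP, 9637 in 22Rv1 and 1316 opposite, with 5 COP9 signalosome subunits lower and 1 higher. GC-adjusted offsets called 6959 (3049 higher, 3910 lower), 10844 in LNCaP, 9360 in 22Rv1 and 1173 opposite.

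Of 138 named genes with a called difference, none changed sign, and 93 kept their call in every alternative except the block, where 57 lost it. With a library left out 45 lost it at least once, with DESeq2 21, with total counts 4, without a filter 3 and with GC-adjusted offsets 1. Signs changed only for named genes with no called difference. COPS5 took -0.19 to 0.0536 with a library left out. With total counts AHR took -0.0383, TNFRSF21 -0.0169, DCLRE1B -0.0599, TYMS -0.0037 and IL32 -0.0505. IL32 took -0.25 with DESeq2, -0.175 with GC-adjusted offsets and -2.28 to 0.865 with a library left out; it had 22 counts in 22Rv1 with CSN5i-3 and 1 with DMSO. With a library left out AHR took -0.0954 to 0.2285, DCLRE1B -0.0626 to 0.1422 and OAS3 -0.0772 to 0.0655; OAS3 took 0.0063 with DESeq2.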
